A study of Mus musculus with 4 samples.

Results

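The genes described here are 10 genes of adipocyte lipid storage: Adipoq, Fabp4, Car3, Pparg, Plin1, Cidec, Lpl, Pnpla2, Cd36 and Lep. They were chosen by name, and every probe set annotated with exactly 1 gene and carrying such a symbol was taken. This gave 19 probe sets for 9 genes, of 45037 non-control probe sets and 18193 genes on the array. Plin1, which coats the lipid droplet, was not analysed here. The RNA was from sorted mammary cells of mice, a basal population that per the labels holds stem cells, myoepithelial cells and their progenitors. SPI stands for 2 arrays of mice fed soy protein isolate, and CAS for 2 arrays of mice on the control casein diet. All 4 came from mice of a mixed B66SJL/HEV/J background that carried MMTV-Wnt1, a transgene that drives the Wnt1 ligand in the mammary gland from a viral promoter, so no array lacked the transgene. Age and treatment time were not given in the sources used here, and whether the 2 arrays per diet stand for different animals is not in the labels. The spread behind each p-value is therefore that of these 4 arrays, and may be technical.

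Adipocytes take fatty acids from circulating lipoproteins, rebuild them into triglyceride and keep the triglyceride in a coated droplet. Lipoprotein lipase on the vessel wall frees the fatty acids, CD36 and fatty acid binding proteins carry them into and through the cell, and PNPLA2 starts the breakdown of the store when energy is needed. The nuclear receptor PPARG drives many of these genes in fat cells. In the mammary gland the epithelium lies within a fat pad, and several of these genes are also used by other cells: Lpl by macrophages and milk-producing epithelium, Cd36 and Fabp4 by capillary endothelium.

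All values are log2 expression values that had been centred per probe set, so that they show differences between arrays and not the level of a gene. The step size of the digits gave each probe set a rough class of level, in log2 units, with bounds at 16, 8, 4 and 2. Of the 19 probe sets 10 lay at level 4 or above, against 28879 of all 45037. The class is set by the finest step among the 4 arrays and does not establish expression: 9 of 43 olfactory receptor probe sets, of which 1 was in the class 8 to 16, also lay at level 4 or above. Among the markers of the labelled cell type 21 of 22 basal probe sets lay at that level, with Krt5, the basal keratin, and a Trp63 probe set in the class 8 to 16.

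Lpl, which encodes lipoprotein lipase, fell in SPI on both of its probe sets. Probe set 1415904_at was at -0.82 and -0.95 on the SPI arrays, against 0.90 and 0.82 on the CAS arrays. The second probe set, 1431056_a_at, was at -0.99 and -0.79 on the SPI arrays, against 0.79 and 0.84 on the CAS arrays. No SPI array came near a CAS array on either probe set, and the arrays of a diet lay far closer to each other than to those of the other diet. The differences were -1.75 (SE 0.087) and -1.70 (SE 0.097) on the log2 scale, which is a 3.35-fold fall in SPI (2.88 to 3.91 as 95% interval, limma adjusted p = 0.00553, with n = 2 per diet) and a 3.24-fold fall (2.73 to 3.85, adjusted p = 0.00681). Ordered from the lowest difference, they stood at places 51 and 64 of the 45037 probe sets. With any 1 array left out the differences lay between -1.81 and -1.60, but the adjusted p lay between 0.122 and 0.224 and 0 of all 45037 probe sets passed. In bulk samples such as these, fewer cells of a type and less RNA per cell cannot be told apart.

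**Figure D1:**
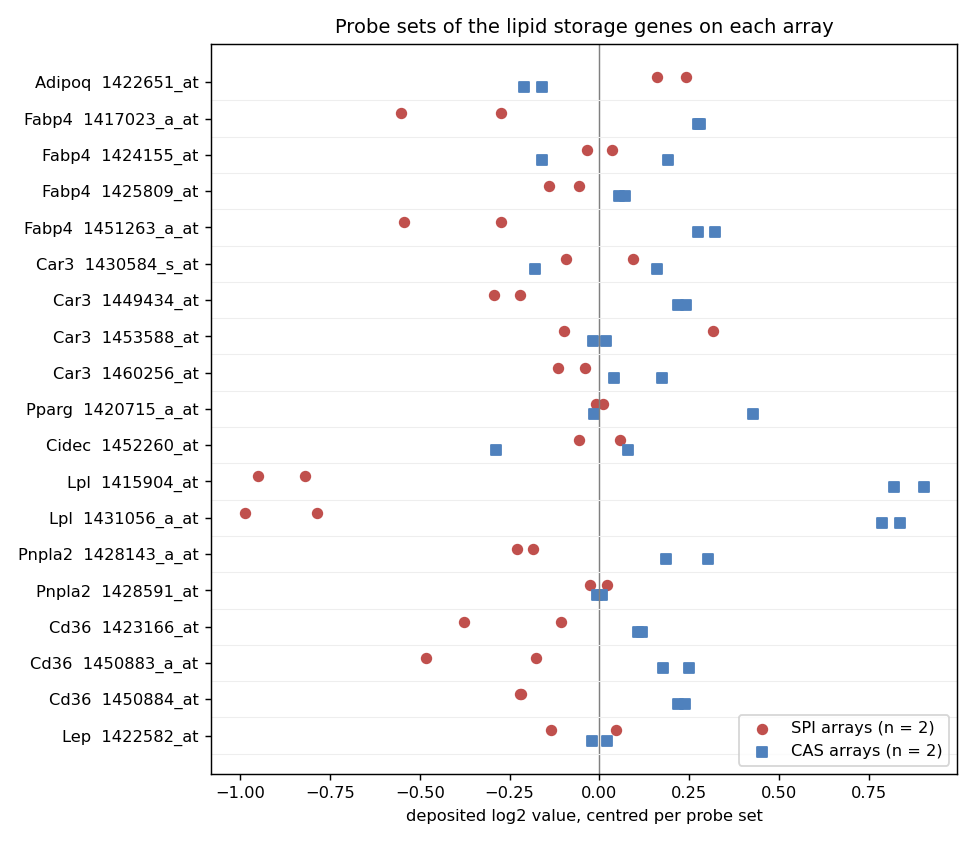
Deposited log2 values, centred per probe set (x axis), of the 19 probe sets (y axis), with circles for the 2 SPI arrays and squares for the 2 CAS arrays. The Lpl probe sets stand apart, at -0.99 to -0.79 in SPI and 0.79 to 0.90 in CAS, and Adipoq is the gene whose SPI arrays both lie above its CAS arrays.

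The partners of lipoprotein lipase, taken here to include an inhibitor and a lipoprotein receptor, differed in direction. Of these, Gpihbp1 and Lmf1 were chosen after their values were seen. Angptl4, which encodes a secreted inhibitor of the lipase, rose in SPI on probe set 1453410_at, at 0.40 and 0.42 on the SPI arrays and -0.51 and -0.40 on the CAS arrays. The difference was 0.87 on the log2 scale (95% interval 0.67 to 1.07, adjusted p = 0.0201). The other Angptl4 probe set lay at 0.30 and 0.24 on the SPI arrays and -0.38 and -0.24 on the CAS arrays, a difference of 0.58 that did not pass (adjusted p = 0.0565). Its suffix, _s_at, marks probes that can bind more than 1 transcript. Gpihbp1, which carries the lipase to the capillary surface, was at -0.19 and -0.44 on the SPI arrays and 0.30 and 0.19 on the CAS arrays. Its difference of -0.56 did not pass (adjusted p = 0.104). Lmf1, needed for the folding of the lipase, had differences of 0.14 and -0.05 with adjusted p of 0.508 and 0.804. Vldlr, a receptor for triglyceride-rich lipoproteins, rose on 1435893_at, with 0.27 and 0.29 on the SPI arrays and -0.27 and -0.33 on the CAS arrays (difference 0.58, 95% interval 0.39 to 0.77, adjusted p = 0.0413). The other 5 Vldlr probe sets had differences between 0.12 and 0.31 and did not pass.

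**Figure D2:**
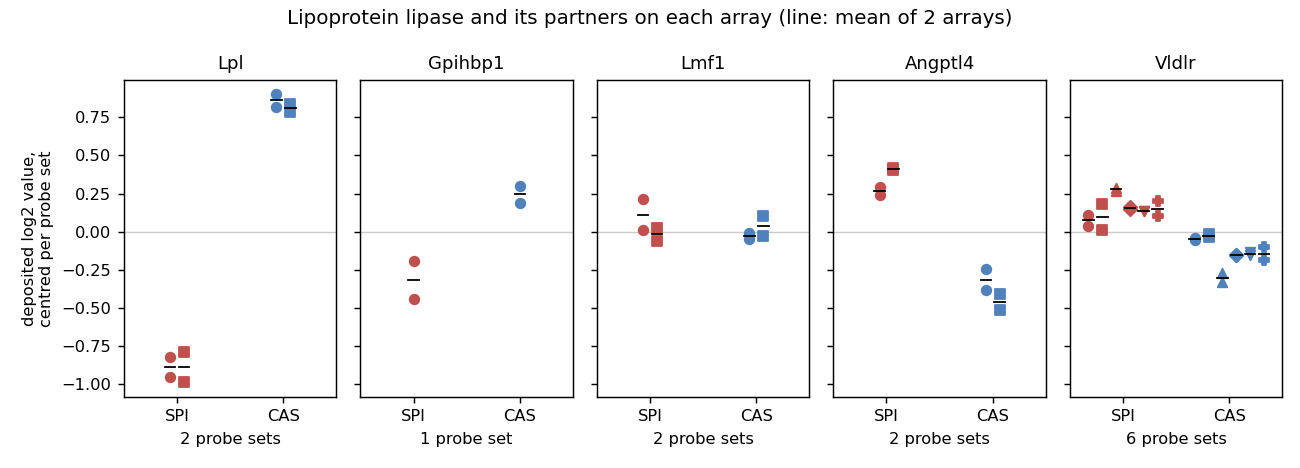
Deposited log2 values, centred per probe set (y axis), of Lpl and its partners on the SPI and CAS arrays (x axis). Each shape is a probe set, each point an array and each line the mean of 2 arrays; SPI lies below CAS for Lpl and Gpihbp1 and above CAS for Angptl4 and Vldlr, and the groups are mixed for a Lmf1 probe set.

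Cd36 was lower in SPI on all 3 of its probe sets without passing the test. The gene, which encodes a fatty acid and scavenger receptor, was at -0.22 and -0.22 on the SPI arrays and 0.24 and 0.22 on the CAS arrays by 1450884_at (difference -0.45, 95% interval -0.63 to -0.27, adjusted p = 0.0671). The 1450883_a_at probe set was at -0.18 and -0.48 on the SPI arrays and 0.18 and 0.25 on the CAS arrays (difference -0.54, adjusted p = 0.128). The remaining Cd36 probe set, 1423166_at, was at -0.11 and -0.38 on the SPI arrays and 0.12 and 0.11 on the CAS arrays (difference -0.35, adjusted p = 0.209). All 3 Cd36 probe sets thus had both SPI arrays below both CAS arrays. SPI arrays lay wholly below CAS arrays in 20.5% of all probe sets.

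Fabp4, the fatty acid binding protein of fat cells, macrophages and capillaries, was read by 4 probe sets that disagreed. By 1451263_a_at it was at -0.27 and -0.54 on the SPI arrays and 0.27 and 0.32 on the CAS arrays (difference -0.71, 95% interval -0.99 to -0.42, adjusted p = 0.0652). By 1417023_a_at it was at -0.27 and -0.55 on the SPI arrays and 0.28 and 0.27 on the CAS arrays (difference -0.69, adjusted p = 0.0705). Neither of these passed in the fit of all probe sets, and on both SPI replicate 2 was the lowest array. The probe set 1425809_at, in the class 8 to 16, showed a smaller difference of -0.16 (interval -0.36 to 0.04, adjusted p = 0.357), and 1424155_at, in the class 2 to 4, had overlapping arrays and a difference of -0.02 (adjusted p = 0.975). In a separate fit of the probe sets at level 4 or above, 1451263_a_at and 1417023_a_at passed (adjusted p = 0.0343 and 0.0373). That fit estimated limma's shared spread anew and adjusted over fewer probe sets. In it 6910 of 28879 probe sets had an unadjusted p under 0.05, against 5962 of the same probe sets in the fit of all.

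Pnpla2, the adipose triglyceride lipase, was lower in SPI by the probe set at the higher level class and not by the other. The 1428143_a_at values were -0.23 and -0.18 on the SPI arrays and 0.18 and 0.30 on the CAS arrays. The difference of -0.45 did not pass in the fit of all probe sets (95% interval -0.66 to -0.24, adjusted p = 0.0871). In the separate fit of the probe sets at level 4 or above it passed (adjusted p = 0.0419). By 1428591_at, in the class 2 to 4, the arrays of the diets were mixed and the difference was -0.0028 (interval -0.19 to 0.18). Cidec, a droplet protein that enlarges droplets by fusing them, was at -0.06 and 0.06 on the SPI arrays and -0.29 and 0.08 on the CAS arrays. Its difference of 0.10 did not pass (interval -0.25 to 0.46, adjusted p = 0.757), and the groups overlapped. The Cidec probe set was in the class 2 to 4.

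Car3, a carbonic anhydrase abundant in fat and muscle, was lower in SPI by 1449434_at, the sole one of its 4 probe sets at level 4 or above. Its values were -0.22 and -0.29 on the SPI arrays and 0.24 and 0.22 on the CAS arrays. The difference of -0.49 did not pass in the fit of all probe sets (95% interval -0.68 to -0.29, adjusted p = 0.0638). In the separate fit of the probe sets at level 4 or above it passed (adjusted p = 0.0285). By 1460256_at the difference was -0.18 (adjusted p = 0.348), again with the SPI arrays below the CAS arrays. The other Car3 probe sets, 1430584_s_at and 1453588_at, had overlapping groups and differences of 0.0094 and 0.11. The Car3 value thus depended on the probe set read.

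Pparg, a regulator of the fat cell, and the hormone genes Adipoq and Lep were each read by 1 probe set and did not pass. Pparg was at -0.0093 and 0.0093 on the SPI arrays and -0.02 and 0.43 on the CAS arrays, and CAS replicate 2 alone stood apart. Its difference of -0.21 did not pass (interval -0.60 to 0.19, adjusted p = 0.553), and without that array it was 0.02. Adipoq, which encodes adiponectin and is made by mature fat cells, was the only one of the 9 measured genes with both SPI arrays above both CAS arrays on a probe set, a pattern found in 27.9% of all probe sets. It was at 0.24 and 0.16 on the SPI arrays and -0.21 and -0.16 on the CAS arrays, a difference of 0.38 (interval 0.19 to 0.58) that did not pass (adjusted p = 0.107). With 1 value per gene, the same Adipoq value passed where genes were read by the mean of all their probe sets (adjusted p = 0.048) and did not where they were read by their highest level class (adjusted p = 0.0571). Its probe set was in the class 2 to 4. Lep, which encodes the satiety hormone leptin, was at 0.05 and -0.14 on the SPI arrays and 0.02 and -0.02 on the CAS arrays, with overlapping groups and a difference of -0.04 (interval -0.28 to 0.19, adjusted p = 0.856). The Lep probe set was also in the class 2 to 4, which held 30 of the 43 olfactory receptor probe sets.

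**Figure D3:**
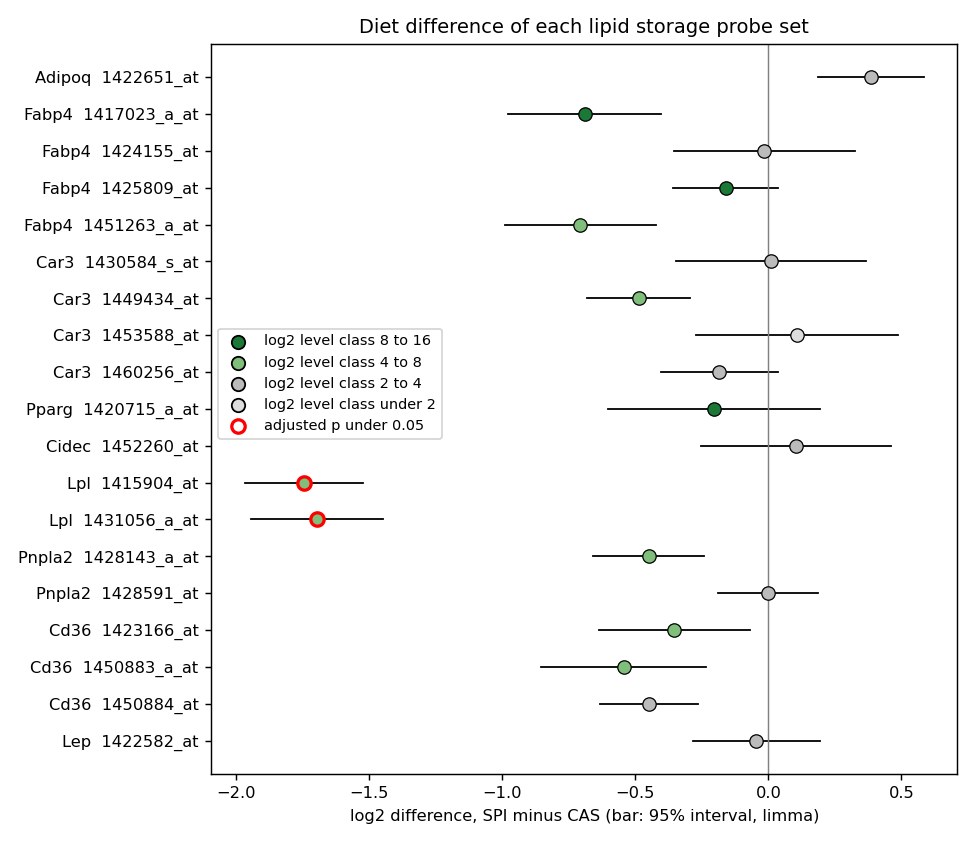
Log2 differences, SPI minus CAS (x axis), of the 19 probe sets (y axis) with 95% intervals of the limma fit, coloured by level class and ringed in red where the adjusted p was under 0.05. The Lpl probe sets, at -1.75 and -1.70, are the 2 that passed, the other differences lie between -0.71 and 0.38, and all 10 probe sets at level 4 or above lie below 0.

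Of the 19 probe sets 2 fell, 0 rose and 17 did not pass in limma, where 1.5% of all 45037 probe sets passed (676, of which 564, or 1.25% of all, were lower in SPI and 112, or 0.249%, higher). At an unadjusted p under 0.05 stood 10 of the 19, 9 of them lower, against 17.8% of all probe sets (8.35% lower). By an ordinary t statistic, without limma's sharing of the spread, 0 of the 19 passed after adjustment, with 8 under 0.05 unadjusted, and 0.00222% of all probe sets did. The median difference of the 19 was -0.21, and that of all probe sets 0.02. Without Lpl the other 17 had a median of -0.18. SPI arrays lay wholly below CAS arrays on 11 of the 19, wholly above on 1, and were mixed with them on 7, where 48.4% of all probe sets had groups that did not overlap. The 10 probe sets at level 4 or above were all below 0, with a median of -0.52 against 0.02 for all probe sets at that level. A strong fall can lower the class, so this split is not independent of the difference. In the fit at level 4 or above 6 of the 10 passed (both Lpl probe sets, 2 of Fabp4 and 1 each of Car3 and Pnpla2), all lower, where 4.6% of all passed. At an adjusted p under 0.1 stood 7 of the 19, all lower, against 3.51% of all. With arrays centred on their median 2 of the 19 passed (1.67% of all), and with the replicate number as a block 2 (0.175% of all). With 1 value per gene, 2 of the 9 genes passed by the mean of all probe sets (Lpl lower and Adipoq higher, 4.0% of all genes), and 4 by the highest level class (Lpl, Fabp4, Car3 and Pnpla2, all lower, 3.67% of all genes).

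Control transcripts added before hybridization were lower in SPI, at -0.04 and -0.11 on the SPI arrays and 0.03 and 0.13 on the CAS arrays. With arrays centred on them the median of all probe sets was 0.18 and that of the 19 probe sets -0.05. On that scale 5 of the 19 passed, 4 lower (both Lpl probe sets, and Fabp4 at -0.53 and -0.55) and 1 higher (Adipoq, 0.54, adjusted p = 0.0294). This fit estimated limma's shared spread anew, with prior degrees of freedom of 7.33 against 3.11 in the main fit. The Fabp4 probe sets passed in it with smaller differences than in the main fit. Of all probe sets 1557 were then higher (3.46%) and 704 lower (1.56%), 5.02% in all. The Lpl differences were -1.59 and -1.54 on that scale. The centring shifts the difference of every probe set by the same amount, so its distance from the median of all probe sets cannot change.

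The start regions of 3 of these genes are shown because their differences, none of which passed, lay on opposite sides of 0: Adipoq at 0.38, Cd36 between -0.54 and -0.35, and Pnpla2 at -0.45 and -0.0028. Each holds 250 bases before and 50 after a RefSeq start of the GRCm38.p6 build, 5′ to 3′ on the gene's strand, and capitals mark matches on either strand to AGGTCA, the core site of nuclear receptors such as PPARG, to TTGCNNAA, a core of C/EBP sites, or to the CCAAT box. The Adipoq region is chr16:23146286-23146585 (+ strand), the Cd36 region chr5:17835847-17836146 (- strand) and the Pnpla2 region chr7:141454938-141455237 (+ strand).
Adipoq: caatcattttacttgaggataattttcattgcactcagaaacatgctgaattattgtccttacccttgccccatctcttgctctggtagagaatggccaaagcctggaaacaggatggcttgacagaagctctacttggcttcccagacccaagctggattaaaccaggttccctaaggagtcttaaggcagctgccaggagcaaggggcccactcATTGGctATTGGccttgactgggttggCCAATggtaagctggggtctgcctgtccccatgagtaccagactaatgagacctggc
Cd36: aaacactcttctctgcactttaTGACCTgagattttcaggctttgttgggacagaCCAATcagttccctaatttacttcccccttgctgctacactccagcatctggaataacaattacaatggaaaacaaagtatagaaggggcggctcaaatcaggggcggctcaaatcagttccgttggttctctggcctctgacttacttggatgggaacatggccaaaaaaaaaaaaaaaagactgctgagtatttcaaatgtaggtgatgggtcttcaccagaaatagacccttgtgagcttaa
Pnpla2: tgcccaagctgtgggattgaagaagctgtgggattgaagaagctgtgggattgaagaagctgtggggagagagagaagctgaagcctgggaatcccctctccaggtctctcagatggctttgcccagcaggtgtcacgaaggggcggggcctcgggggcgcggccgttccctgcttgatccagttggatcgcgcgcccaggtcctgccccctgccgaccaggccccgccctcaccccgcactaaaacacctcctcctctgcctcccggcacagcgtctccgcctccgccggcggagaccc
The Adipoq region held 3 CCAAT matches, the Cd36 region 1 AGGTCA and 1 CCAAT match, and the Pnpla2 region none of the 3 motifs. Of 32851 RefSeq start regions of the same length 16.3% held AGGTCA, 10.8% TTGCNNAA and 37.4% CCAAT, so such matches are common and are a description of the letters. Entries for Lpl, Fabp4 and Car3 were not used here, and the regions of Pparg, Cidec, Lep and Plin1 are not shown.

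Other genes of the same pathways were read from 5 lists. Of their 167 probe sets 6 passed, 2 higher and 4 lower, where 1.5% of all probe sets passed, and 55 had an unadjusted p under 0.05, where 17.8% of all did. With arrays centred on hybridization controls 23 passed, 16 higher and 7 lower, so the prevailing direction of the passing probe sets turned with the scaling. In fatty acid uptake, 2 of 30 probe sets (15 genes) rose, those of Angptl4 and Vldlr, and 0 fell; 15 had an unadjusted p under 0.05, 12 of them higher, and the median was 0.12. Of 26 probe sets (16 genes) for droplet proteins and triglyceride breakdown 0 passed, with 10 under 0.05 unadjusted, 4 lower and 6 higher, and a median of 0.07. Plin4, a droplet coat protein of fat cells, had the smallest p there, at 0.19 and 0.34 on the SPI arrays and -0.19 and -0.20 on the CAS arrays (difference 0.46, adjusted p = 0.092). Of 32 probe sets (15 genes) of triglyceride synthesis 0 passed, with 4 under 0.05 unadjusted and a median of 0.08. The final enzyme of the pathway, Dgat2, was nearest, at 0.24 and 0.22 on the SPI arrays and -0.22 and -0.31 on the CAS arrays (difference 0.50, adjusted p = 0.0628). The other Dgat2 probe set had a difference of 0.22 (adjusted p = 0.319).

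Among 44 probe sets (17 genes) of adipogenic regulators 1 fell, 0 rose and the median was 0.02. It belonged to Ebf1, a transcription factor of B cells and of fat cell differentiation, at -0.68 and -0.58 on the SPI arrays and 0.58 and 0.91 on the CAS arrays (difference -1.37, 95% interval -1.70 to -1.04, adjusted p = 0.0221). Other Ebf1 probe sets, at -0.98, -0.59, -0.46 and -0.03, did not pass. Of 35 probe sets (17 genes) of adipokines, their receptors and the insulin and adrenergic response 3 fell, 0 rose and the median was -0.03. Rarres2, which encodes the adipokine chemerin, fell on 2 probe sets, by 1.11 and 1.39 on the log2 scale (adjusted p = 0.0181 and 0.035), both with the _s_at suffix. The other Rarres2 probe set, 1425091_at, had overlapping groups and a difference of -0.24 (adjusted p = 0.465). Lepr, the leptin receptor, was at -0.50 and -0.50 on the SPI arrays and 0.50 and 0.72 on the CAS arrays by 1425644_at (difference -1.11, interval -1.36 to -0.86, adjusted p = 0.0186). Other Lepr probe sets lay between -0.90 and 0.06 and did not pass. By the ordinary t statistic 0 probe sets of these 5 lists passed.

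**Figure D4:**
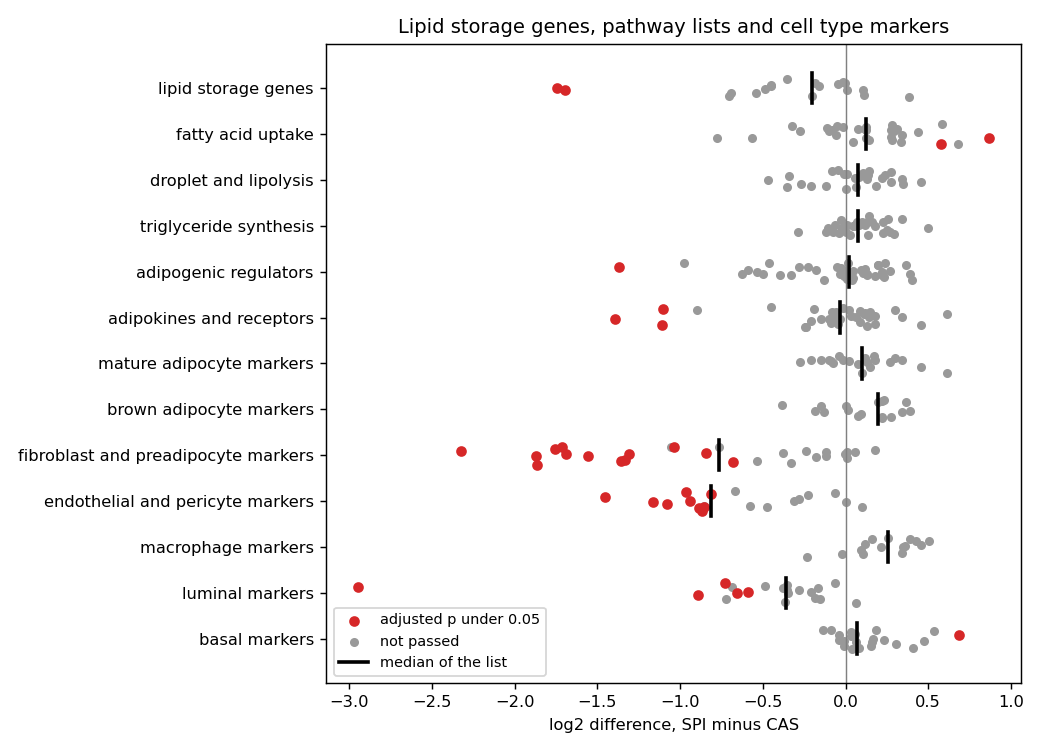
Log2 differences, SPI minus CAS (x axis), of the probe sets of the lipid storage genes, of 5 pathway lists and of 7 cell type marker lists (y axis), with passing probe sets in red and a bar at each list's median. The mature adipocyte markers have a median of 0.10 with none passing, while the fibroblast and the endothelial and pericyte markers have medians of -0.77 and -0.81.

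Markers of cell types that could carry these transcripts moved unequally. Over all 45037 probe sets 1.25% fell and 0.249% rose in limma. An unadjusted p under 0.05 was held by 8006 of them (17.8%), of which 4245 were higher in SPI. Of 21 probe sets (12 genes) of other mature adipocyte markers, some of them also in the lists above, 0 passed in limma, 5 had an unadjusted p under 0.05, all higher in SPI, and the median was 0.10. The list's medians by array were 0.06 and 0.03 in SPI and -0.03 and -0.01 in CAS, and 13 of the 21 lay at level 4 or above. Its smallest p was that of Thrsp, a lipogenic regulator, at 0.61 (adjusted p = 0.0652), with 0.30 and 0.12 on the other Thrsp probe sets. Of 17 brown adipocyte probe sets 0 passed (5 under 0.05 unadjusted, median 0.20). Nearest was Ppargc1a, a coactivator of mitochondrial genes, at 0.39 by 1437751_at in the class 2 to 4 (adjusted p = 0.0899). Other Ppargc1a probe sets lay between -0.13 and 0.23, with 0.0027 for 1460336_at in the class 8 to 16.

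Of 27 probe sets of fibroblast and preadipocyte markers 13 fell and 0 rose, with list medians of -0.34 and -0.33 on the SPI arrays and 0.44 and 0.33 on the CAS arrays. They included the matrix genes Lum (-2.33), Mfap5 (-1.86 on 1 of its 2 probe sets), Dpt (-1.75), Col3a1 (-1.56 and -1.87) and Col1a2 (-1.31 and -1.36, with 0.0076 on a further probe set that did not pass). Of 19 endothelial and pericyte probe sets (12 genes) 9 fell and 0 rose, with medians of -0.38 and -0.42 on the SPI arrays and 0.34 and 0.37 on the CAS arrays. The 9 belonged to 5 genes, and the other 7 genes had no passing probe set. Passing probe sets were those of the pericyte genes Pdgfrb (-1.46 and -0.81), Rgs5 (-1.16, -1.08, -0.89 and -0.87) and Notch3 (-0.97). The endothelial genes with a passing probe set were Cdh5 (-0.94) and Plvap (-0.86). Further probe sets of Notch3 (-0.31) and Cdh5 (0.10) did not pass. Of 20 luminal probe sets 5 fell, those of the milk protein Wap (-2.95), the keratins Krt18 (-0.73) and Krt19 (-0.89) and the oestrogen receptor Esr1 (-0.59 and -0.66), and 0 rose. A further Esr1 probe set was at 0.07 and did not pass. Macrophage markers did not pass on any of 15 probe sets (7 under 0.05 unadjusted, all higher, median 0.26), with C1qc, a complement subunit, nearest at 0.42 (adjusted p = 0.125). Of 22 basal probe sets 1 rose, that of the oxytocin receptor Oxtr (0.68, adjusted p = 0.027), and 0 fell. The fibroblast, endothelial and pericyte, and luminal probe sets that fell (13 of 27, 9 of 19 and 5 of 20) did so on the same 4 arrays as Lpl, and the part of those cell types in the Lpl difference was not tested.

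The probe sets whose values over the 4 arrays lay nearest to those of Lpl were sought as a description of likeness, with all sharing the same arrays. For 1415904_at these were Mcpt4, a mast cell protease (Euclidean distance 0.074), Fmod, a collagen-binding proteoglycan (0.076), and Ogn, a proteoglycan of the same family (0.11). For 1431056_a_at they were Col1a1, a chain of type I collagen (0.066), Trim12c, a member of the tripartite motif family (0.083), and Pigr, the epithelial receptor that carries IgA into milk (0.11). The Mcpt4 and Ogn probe sets were in the class 2 to 4, that of Trim12c in the class under 2, and the others in the class 4 to 8. The differences of the 6 lay between -1.75 and -1.66, near those of Lpl by the way they were chosen. Probe sets of Lpl itself were left out, and no other lipid storage probe set had a difference below -0.71. The absence of lipid storage genes among the 6 was thus set in advance.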

How the data were processed

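RNA of 4 samples was hybridized to Affymetrix arrays, and 1 deposited table held them all. Per the labels' protocols, sorted cells gave total RNA that was amplified and labelled with biotin. Per the submitters' processing notes GCOS and RMA were used, with no version or genome build stated. The authors deposited log2 values (the base taken from RMA) that were also centred per probe set: the median of the 4 was 0 to within 5e-07, a step no label records. Scanner intensities were not used here, and the number of arrays limits the precision.

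Of 45101 probe sets 64 controls were left out. Of the other 45037, 34945 had 1 gene in the platform annotation, 932 several and 9160 none listed; gene IDs matched the GRCm38.p6 table for 34754 of 34958 annotated probe sets with 1 gene. The level class is the coarsest step of single-precision numbers that fits all 4 values (tolerance 0.02 of a step beyond rounding), and 545 probe sets had none.

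Every probe set was tested with limma 3.58.1 in R 4.3.3 (moderated statistic from lmFit and eBayes, SPI minus CAS without a block, both sides), adjusted by Benjamini-Hochberg across the 45037 probe sets at a threshold of 0.05; residual degrees of freedom were 2 and prior degrees of freedom 3.11. The fit was tested on simulated data. Intervals are 95% limma intervals. Beside the 10 genes, the text names up to 5 passing genes of smallest p per list (the gene of smallest p where none passed), 3 nearest neighbours per passing probe set, the partners of Lpl, and Krt5 and Trp63, of which Gpihbp1, Lmf1, Krt5 and Trp63 were chosen after their values were seen. The genes, lists and tests were chosen with earlier results of these data known. Alternatives were a replicate block, each array left out, 2 array centrings, an ordinary t statistic, a level filter, a looser threshold, 1 value per gene, and probe sets ending in _s_at, _x_at or _a_at left out.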

Additional observations from a re-analysis of the deposited data

How the results depend on the processing

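Passing probe sets numbered 676 over the array, 2 among the lipid storage genes and 6 in the pathway lists. With any 1 array left out, where the single array of a diet is taken to vary like the other diet's, all 3 counts were 0, with 4882 to 6513 probe sets under an unadjusted p of 0.05. The same replicate numbers do not mark a known pairing (correlation of their deviations -0.0989): with the replicate block 79 passed over the array, 2 lipid storage probe sets and 0 of the pathway lists. Centred on hybridization controls, where the shared spread was estimated anew, the counts were 2261, 5 and 23 (16 higher and 7 lower in the pathway lists, against 2 higher and 4 lower without that centring). With an ordinary t statistic they were 1, 0 and 0, with 6084 under 0.05 unadjusted. At level 4 or above, where fewer probe sets were tested and the shared spread was estimated anew, they were 1329, 6 and 15 (4.60% of those tested). At an adjusted p under 0.1 they were 1579, 7 and 18. With 1 value per gene from the highest level class, 667 genes passed (3.67%), 4 of them lipid storage genes (Lpl, Fabp4, Car3 and Pnpla2), and 2 of the pathway lists. Without probe sets ending in _s_at, _x_at or _a_at, 1 lipid storage and 3 pathway probe sets passed. Lpl 1431056_a_at was among those left out by its suffix.

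Differences that had not passed and changed sign were those of Fabp4 1424155_at (-0.19 to 0.16 with 1 array left out, 0.14 centred on hybridization controls), Car3 1430584_s_at (-0.16 to 0.18, and -0.0057 with arrays centred on their median), Car3 1453588_at (-0.10 to 0.32), Pparg (-0.426 to 0.0162), Cidec (-0.0807 to 0.289), Pnpla2 1428591_at (-0.0259 to 0.0203, and 0.15 centred on hybridization controls) and Lep (-0.136 to 0.0471, and 0.11 centred on hybridization controls). The cause was not tested. The Lpl differences kept their sign in each alternative, which was set in advance for most of them. The replicate block, the ordinary t statistic, the level filter and the looser threshold cannot change a difference. As no SPI array came near a CAS array on Lpl, leaving out 1 array could not turn the sign either.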
